A study of Mus musculus with 38 samples.

Results

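The spleen response to low-dose X-rays was compared between Balb/C, a strain known for its sensitivity to ionising radiation, and B6.C, a strain on a C57 background. The comparison used the 16 arrays that carry these strain names, 8 of Balb/C (BalbxJ in the labels) and 8 of B6.C, out of 38 arrays from 6 strains. Irradiated mice of both strains were males that received 10 rad (10 cGy) of X-rays, and controls of the same strain were sham-exposed. Spleens were taken 3.5 hr later, and the labels give an age of 10 to 14 weeks, whereas the methods give a range that starts and ends younger. Each array was hybridised with RNA of 1 irradiated and 1 control mouse that had been paired at random, and each pair was run on 2 arrays with the dyes swapped. Each strain thus had 4 arrays with irradiated RNA labelled with Cy5 and 4 with the opposite labelling. In mouse nomenclature B6.C denotes a C57BL/6 stock that carries a segment of the BALB/c genome, and the labels do not say which segment.

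Ionising radiation breaks DNA, and the cell answers through damage kinases such as those encoded by Atm and Chek2 and through the transcription factor p53, which drives cell cycle arrest genes such as Cdkn1a and cell death genes such as Bax and Pmaip1. The spleen is rich in lymphocytes, which are among the most radiation-sensitive cells of the body, and the mouse spleen is also a site of red cell formation. BALB/c mice are known for a form of Prkdc, a kinase of double-strand break repair, with low activity, and for a variant form of the tumour suppressor Cdkn2a. No probe used here was matched to Prkdc or Cdkn2a.

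The values were signed scores, 1 per spot and array. Each array was centred on the median of its probes, and scores of arrays with irradiated RNA in Cy3 were given the opposite sign, so that a turned score ran in the same direction from control to irradiated RNA on every array. It is not known whether a positive turned score stands for more or for less RNA after irradiation, because the direction of the deposited scores is not given in the sources used here. Accordingly, a strain difference is given as Balb/C minus B6.C on the turned scale, and its positive side means only that Balb/C lay above B6.C there. It is also not given whether the authors had already put all arrays in the direction of irradiated over control, in which case turning the sign would set the strain difference into the dye-dependent component described at the end. Probes measured on 3 or more of the 4 arrays of every strain and orientation were tested, which left 13180 of 21618 probes, and 3875 of them carried a gene symbol.

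The arrays of the strains differed in spread and in likeness. Arrays held 13819 to 19860 probes. On Balb/C arrays 35, 36 and 84 the interquartile range of the centred scores was 2.06, 3.40 and 1.37, and on array 36 scores above 2 were found for 32.1% of probes. The other Balb/C arrays had interquartile ranges of 0.598 to 1.03. Those of B6.C ran from 0.614 to 2.03, with arrays 53, 54 and 50 at 2.03, 1.45 and 1.36, so that wide arrays were found in both strains. Before turning, Balb/C arrays of opposite orientation had a median correlation over probes of 0.343, with 0 of 16 pairs below 0, whereas those of B6.C had a median of -0.093, with 11 of 16 pairs below 0. Balb/C scores thus tended to keep their sign when the dyes were swapped. Arrays of the same orientation had a median correlation of 0.524 in Balb/C, with 0 of 12 pairs below 0. In B6.C it was 0.034, with 5 of 12 pairs below 0, so that B6.C arrays were little alike in either case. B6.C arrays 53 and 50 correlated at -0.449 with B6.C array 49 and at -0.343 with Balb/C array 2, which have the same orientation, so the direction of these arrays was not settled, and results that change with the signs of arrays 50 and 53, or of arrays 2 and 49, are given both ways. All B6.C arrays carry numbers 47 to 54 and no Balb/C array does, so that array number and strain cannot be told apart. Of 23 markers fixed for spleen cells, 17 matched a probe, and each of those had values on 10 to 16 of the 16 arrays, among them Cd79a and Ms4a1 of B cells and Cd3e of T cells.

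**Figure D1:**
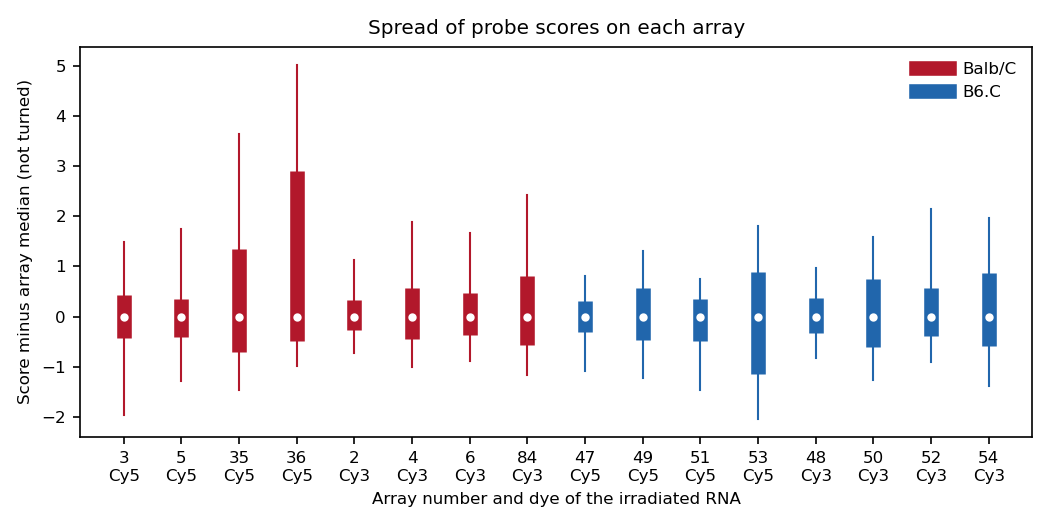
Spread of centred probe scores (y axis, score minus array median, not turned) on each of the 16 arrays (x axis, array number and dye of the irradiated RNA). Thick bars span the quartiles, thin lines the middle of the scores from percentile 5 to percentile 95 and white points the median. The upper quartile of array 36 lies at 2.91, and that of each other Balb/C array at 1.35 or lower.

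No gene passed the test of the dye-balanced strain difference. Over 13180 probes, limma called 0 at an adjusted p under 0.05, which is 0% of those tested, and the smallest adjusted p was 0.736. At an unadjusted p under 0.05 there were 484 probes (3.67%), 434 (3.29%) on the positive side and 50 (0.379%) on the negative side. Leaving out Balb/C array 2, 6, 35 or 36 lowered that count to 276, 271, 293 and 304, and leaving out array 3, 5 or 84 raised it to 1051, 1210 and 729. It was 249 without arrays 35, 36 and 84 together, and 962 with the signs of arrays 50 and 53 turned. The median difference over all probes was 0.195 and 67.5% of the differences were positive, which is the background for the genes and lists below. Without array 36 the median was 0.113, without arrays 35, 36 and 84 it was 0.069 (58.7% positive) and with array weights it was 0.048 (55.9% positive). With arrays weighted by their scatter, limma called 60 probes, 51 of them positive, and with weights from a gene-by-gene estimate it called 16, all of them among the 60. Weights ran from 0.131 for array 36 and 0.188 for array 53 to 16.2 for array 47, and the estimate of the weights that gave 60 calls stopped before it had converged. The arrays are the units in these fits, so that p-values are too small where 2 arrays hold the same mice.

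The sign of the strain difference agreed between the dye orientations for 3940 of 13180 probes (29.9%), of which 2685 (20.4%) were positive and 1255 negative. Among them were 1084 probes with a gene symbol, 692 positive and 392 negative. When the signs of arrays 50 and 53 were turned the share was 41.5%, with those of arrays 2 and 49 turned it was 35.3%, and without arrays 35, 36 and 84 it was 39.1%. In separate fits of each orientation, limma called 415 probes with irradiated RNA in Cy5 (3.15%, all positive) and 0 with it in Cy3 (0%), where 1298 had an unadjusted p under 0.05. The count in Cy5 was 0 without array 47, 49 or 53 of B6.C, and 8769 probes passed there, all on the negative side, when arrays were not centred. In both fits 858 probes had an unadjusted p under 0.05, and 5 of those had the same sign. Those 5 were all positive and included 2 named genes, Nts and Phb2. In 0 of 13180 probes did the 8 arrays of one strain lie wholly above the 8 of the other.

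**Figure D2:**
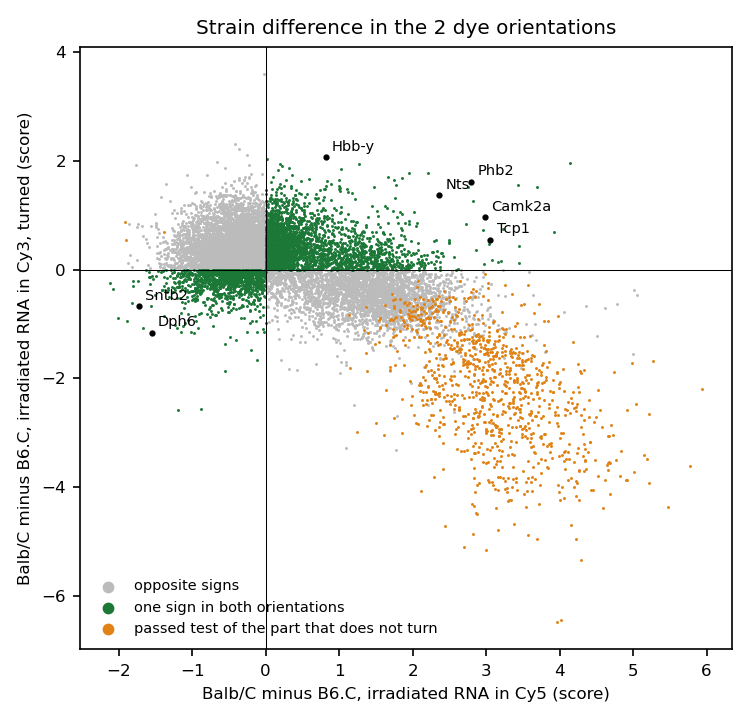
Strain difference of each of the 13180 probes (points, score), with irradiated RNA in Cy5 (x axis) and in Cy3 after turning (y axis). Green points have the same sign in both orientations, orange points passed the test of the component that does not turn with the dyes, and black points are named genes. Orange points gather at the lower right, where the difference is positive with irradiated RNA in Cy5 and negative with it in Cy3.

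Of the genes on the positive side in both orientations, the 12 with the smallest p had differences of 0.88 to 2.21 and adjusted p-values of 0.888. Ncf4, a subunit of the phagocyte NADPH oxidase that makes superoxide in neutrophils and macrophages, led them. Its turned scores on the 8 Balb/C arrays were at lowest -1.03, in the median 0.32 and at highest 1.05, and on the 8 B6.C arrays -2.06, -0.89 and -0.07. All 8 B6.C arrays were thus below 0 while 6 Balb/C arrays were above it, and the strains overlapped. The difference was 1.24 ± 0.32 (SE), with 0.996 in the Cy5 orientation and 1.49 in the Cy3 orientation. With array weights it was 1.43, with an adjusted p of 0.0174, and with gene-by-gene weights 1.33, which did not pass (adjusted p = 0.0619).

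The interferon regulatory factor Irf7, which amplifies type I interferon production, had the highest Balb/C median of the 12. Its turned scores in Balb/C were at lowest -0.95, in the median 1.60 and at highest 2.93 (6 arrays), and in B6.C -0.98, -0.28 and 0.92 (7 arrays). In Balb/C 5 of 6 arrays were above 0, and on array 84 the score was the lowest. The difference was 1.46 ± 0.38 (SE), with 2.05 in Cy5 and 0.86 in Cy3. With array weights it was 1.44 with an adjusted p of 0.0323, and with gene-by-gene weights it did not pass (adjusted p = 0.0619). The interferon-induced antiviral gene Rsad2 was not on any list and was named after its values were seen. It was picked from the 19 probes with a symbol among the 60 called with array weights. Others of these, such as Slc26a2, Arf2 and Polg2, are not described here. Rsad2 had a difference of 1.03 at equal weights and of 1.51 with array weights, with a limma adjusted p of 0.0312 in the latter. The estimate of those weights had not converged, and the result with gene-by-gene weights is not given here. On the interferon list 7 of 10 genes were positive (70% against 67.5% of all probes), while Ifit2, Irf9 and Psmb9 were at -0.06, -0.15 and -0.15.

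Nts and Phb2 were the named genes with an unadjusted p under 0.05 in each orientation on its own. By the design both orientations hold the same mice, so that the tests in them are not independent. Nts encodes the secreted peptide neurotensin. Its turned scores in Balb/C were at lowest -0.79, in the median 0.47 and at highest 1.52 (7 arrays), and in B6.C -3.15, -1.59 and 0.67 (8 arrays). In B6.C 7 of 8 arrays were below 0, and array 49 alone was above it. The difference was 1.87 ± 0.51 (SE), with 2.36 in Cy5 and 1.38 in Cy3. Phb2 encodes prohibitin 2, a scaffold of the inner mitochondrial membrane. Its turned scores in Balb/C were at lowest -0.89, in the median 0.55 and at highest 2.28 (6 arrays), and in B6.C -4.59, -1.33 and 1.05 (8 arrays). The lowest scores of Phb2 came from B6.C arrays 49, 47 and 51, whereas arrays 53 and 54 were above 0. Its difference of 2.21 ± 0.73 (SE) was the greatest of the 12, with 2.80 in Cy5 and 1.62 in Cy3. Phb2 passed the test with both kinds of array weights, with adjusted p-values of 0.00645 and 0.0176. Both kinds gave the greatest weight to B6.C array 47 (16.2 and 5.52), where Phb2 scored -3.50. Array 53, where it scored 1.05, had weights of only 0.188 and 0.200. The 2 passes thus rest on the same arrays, and the first estimate of the weights had not converged.

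A pair of globin genes had positive differences. Hbb-y, an embryonic beta-like globin that was not on the erythroid list, had turned scores in Balb/C at lowest of -1.41, in the median of 0.08 and at highest of 1.11 (7 arrays), and in B6.C of -2.30, -1.30 and -0.31 (8 arrays). All 8 B6.C arrays were below 0, and 4 of 7 Balb/C arrays were above it. The difference was 1.45 ± 0.39 (SE), with 0.81 in Cy5 and 2.08 in Cy3. Hba-a1, an adult alpha globin, ran from -0.89 through a median of 0.67 to 2.29 in Balb/C and from -2.77 through -0.83 to 1.28 in B6.C (8 arrays each), which is a wide overlap. Its difference was 1.38 ± 0.54 (SE), and it did not pass at equal weights (adjusted p = 0.888). Both globin genes passed with both kinds of array weights, Hba-a1 at 1.99 and 1.92 and Hbb-y at 1.78 and 1.71. B6.C array 47 had the greatest weight in both, so that these passes are not independent. Globin genes are close copies of each other, so that a probe may bind the RNA of more than 1.

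The erythroid and heme list was near the background in its share of positive genes. Its median and its share with the same sign in both orientations were higher, which was not tested. Of 43 genes, 21 were tested, and 16 were positive (76.2% against 67.5% of all probes), with a median of 0.457 against 0.195. In 11 of the 21 the sign was the same in both orientations, against 29.9% of all probes. Of the 21, 9 were positive in both, against 20.4% of all probes. None was called at equal weights, and 3 had an unadjusted p under 0.05, namely Hba-a1, Ermap, a membrane protein of red cell precursors, at 0.85, and Fech, the enzyme that inserts iron into heme, at 0.76. Slc4a1, the anion exchanger of the red cell membrane, was at 0.89, while Fth1, a ferritin chain, was at -0.28. On single arrays the list median lay between -0.527 and 0.425 in Balb/C and between -0.486 and 0.319 in B6.C, above 0 on 5 of 8 and on 2 of 8 arrays. Without arrays 35, 36 and 84, 12 of 19 tested genes were positive and the median was 0.305, against 58.7% and 0.069 for all probes there. In bulk spleen RNA, a change in the number of cells of a type and a change in RNA per cell cannot be told apart.

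The remaining genes of the leading 12 had no common role. Ska2, which helps attach chromosomes to the spindle, had a difference of 1.61 ± 0.42 (SE), and 7 of 8 B6.C arrays were below 0. Sprr1a, a cornified envelope protein, differed by 0.997 ± 0.28 (SE). Its turned scores were at lowest -0.74, in the median 0.09 and at highest 0.56 in Balb/C and -1.46, -1.14 and -0.36 in B6.C (8 arrays each), so that all 8 B6.C arrays were below 0. Camk2a, a calcium-dependent kinase best known from neurons, differed by 1.98 ± 0.61 (SE). It was the single gene of the 12 that passed in the Cy5 orientation on its own, at 2.99 with an adjusted p of 0.0255 in limma, and it was at 0.97 with an adjusted p of 0.761 in Cy3. Atp5g2, a subunit of the mitochondrial ATP synthase, differed by 1.39 ± 0.44 (SE) and Rgcc, a regulator of the cell cycle, by 0.88 ± 0.28 (SE). Ska2, Sprr1a, Atp5g2 and Rgcc passed in limma with array weights, with adjusted p-values of 0.0154, 0.0234, 0.0356 and 0.0323. The estimate of those weights had not converged, and none of these genes passed with gene-by-gene weights. Myf6, a muscle transcription factor, and Dhh, a hedgehog ligand, had differences of 1.26 and 1.28 that came mainly from the Cy5 arrays, with 1.98 and 2.07 in Cy5 against 0.53 and 0.49 in Cy3.

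On the negative side, the 12 genes with the smallest p differed by -1.35 to -0.66, with adjusted p-values of 0.888. Sntb2, a syntrophin that anchors proteins to the dystrophin complex, led them. Its turned scores in Balb/C were at lowest -1.83, in the median -1.25 and at highest 0.02 (6 arrays), and in B6.C -0.74, 0.05 and 1.06 (8 arrays). Of 6 Balb/C arrays 5 were below 0, and 4 of the 8 B6.C arrays were. The difference was -1.20 ± 0.36 (SE), with -1.73 in Cy5 and -0.66 in Cy3. Dph6, an enzyme of diphthamide synthesis on elongation factor 2, had the greatest difference, -1.35 ± 0.57 (SE). Its turned scores ran from -2.71 through a median of -1.90 to 0.09 in Balb/C and from -1.95 through -0.17 to 1.05 in B6.C (7 arrays each), so that the ranges overlapped. It was the only named gene on the negative side to pass with array weights, at -2.22 with an adjusted p of 0.0323, and it did not pass with the gene-by-gene weights.

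Vldlr, a lipoprotein receptor, was the gene of these 12 with every Balb/C array below 0. Its turned scores ran from -1.46 through a median of -0.68 to -0.13 in Balb/C and from -1.37 through 0.20 to 0.81 in B6.C (8 arrays each), and the difference was -0.74 ± 0.34 (SE). Hsd11b2, which inactivates glucocorticoids, was above 0 on all 7 B6.C arrays that measured it, from 0.06 through 0.20 to 1.28, and ran from -1.38 through -0.70 to 0.72 in Balb/C. Its difference was -0.79 ± 0.35 (SE). Uqcr11, a subunit of respiratory complex III, and Ptpn4, a tyrosine phosphatase, differed by -0.86 and -0.76. The autophagy enzyme Atg3 was at -0.85, the RNA polymerase I subunit Znrd1 at -0.86, the motor protein Kif21a at -0.66, the Notch ligand Jag1 at -0.82, the basement membrane protein Nid2 at -0.70 and the Toll-like receptor kinase Irak1 at -0.86. For Jag1, Kif21a, Znrd1 and Irak1 the Cy3 arrays gave only -0.05 to -0.14, against -1.20 to -1.59 in Cy5. None of the 12 genes on either side changed sign when the signs of arrays 50 and 53 were turned.

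**Figure D3:**
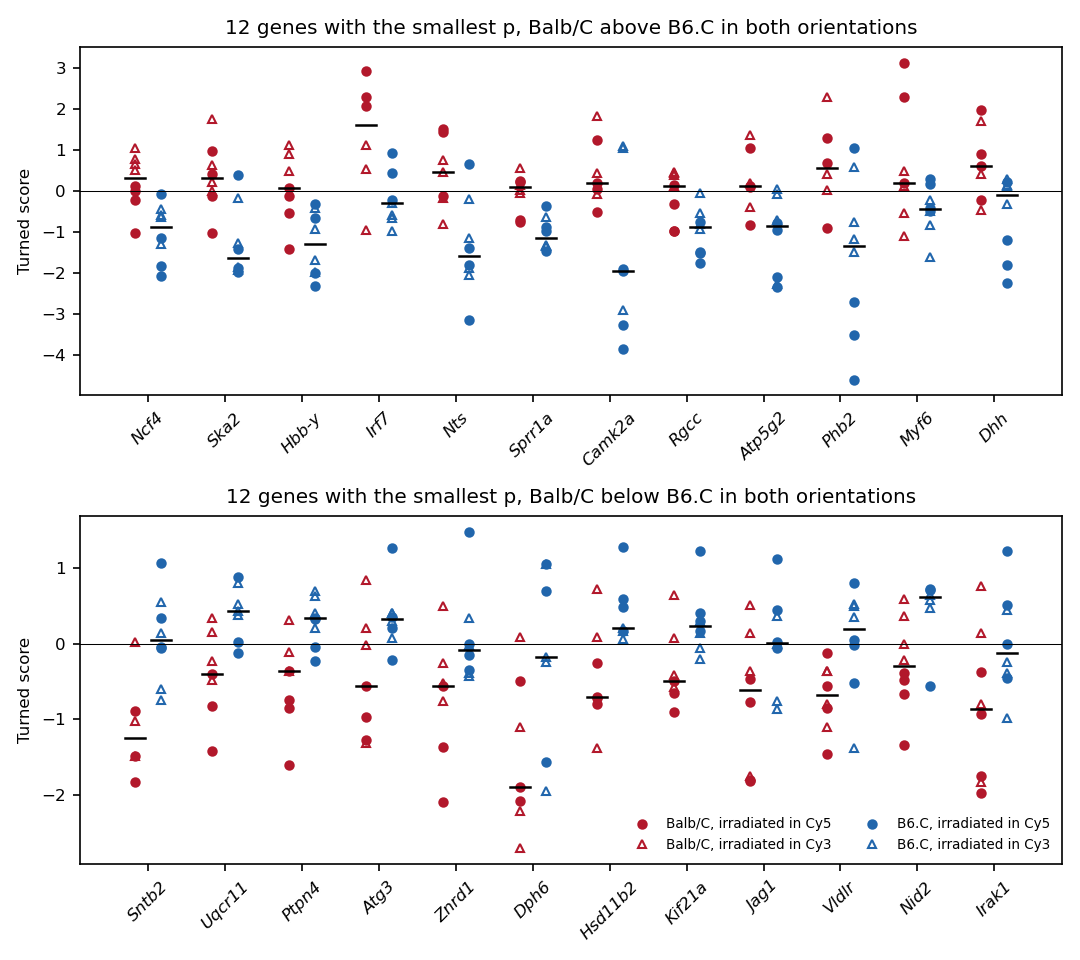
Turned scores (y axis) on each array of the 12 named genes with the smallest p above (upper panel) and below (lower panel) in Balb/C relative to B6.C. Filled circles are arrays with irradiated RNA in Cy5, open triangles those with it in Cy3, and black bars the median of each strain. The strains overlap for every gene, and for Ncf4, Hbb-y, Sprr1a and Rgcc all 8 B6.C arrays lie below 0.

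Within each strain, the response itself passed for few genes. In Balb/C, 0 of 13180 probes had an adjusted p under 0.05 (0%), with 1666 at an unadjusted p under 0.05. In B6.C, 21 probes passed (0.159%), all on the negative side, with 914 at an unadjusted p under 0.05. The 2 with a symbol were Sprr1a, at -1.04 ± 0.20 (SE, limma adjusted p = 0.0351), and Dtd1, an enzyme that clears D-amino acids from tRNA, at -1.55 ± 0.29 (SE, limma adjusted p = 0.0342). In Balb/C their values were -0.04 and -0.65. The B6.C response had 0 calls when the signs of arrays 50 and 53 were turned and 5 when these were left out, and it had 4 when the sign of array 49 was turned. At equal weights the strain difference was not called for Sprr1a or Dtd1 (limma adjusted p = 0.888 for both). With array weights that of Sprr1a passed at 1.02 (limma adjusted p = 0.0234), but the estimate of those weights had not converged. With gene-by-gene weights it did not pass (adjusted p = 0.0784). The response is thus not shown to differ between the strains.

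As with all 13180 probes (0%), no p53 target or DNA repair gene was called in the dye-balanced fit. Of 29 p53 targets 9 were tested, 4 of them positive, with a median of -0.041 against 0.195 for all probes, and 0 were called. Cdkn1a, the main p53-driven inhibitor of the cell cycle, differed by 0.06 ± 0.31 (SE), and Mdm2, which degrades p53, by -0.04 ± 0.38 (SE). Bax was at 0.42 ± 0.32 (SE), and Xpc, a sensor of DNA lesions, at 0.98 ± 0.43 (SE), but with 2.00 in Cy5 and -0.03 in Cy3. Trp53, which encodes p53, was at -0.29 ± 0.27 (SE) and Pmaip1 at -0.07 ± 0.40 (SE), a value that turned positive under several alternatives. Turned scores of Trp53 ran from -1.002 through a median of 0.12 to 0.71 in Balb/C and from -0.40 through 0.19 to 0.88 in B6.C (8 arrays each), so that the ranges overlapped.

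Of the DNA repair genes, 24 of 53 were tested, and 18 of these (75% against 67.5%) were positive, with a median of 0.381. The sign was the same in both orientations for 5 of the 24, against 29.9% of all probes, and the list median was 0.975 in Cy5 and -0.362 in Cy3. Chek2, a checkpoint kinase, was one of the 5, at 0.87 ± 0.41 (SE), with 0.79 in Cy5 and 0.95 in Cy3. Its turned scores ran from -0.96 through a median of 0.35 to 1.66 in Balb/C (7 arrays) and from -2.28 through -0.47 to 0.76 in B6.C (8 arrays), overlapping between -0.96 and 0.76. Ung, which removes uracil from DNA, was at -0.58 ± 0.36 (SE). In the component described at the end, which does not turn with the dyes, 3 of the 24 repair genes were called, against 7.49% of all probes. In the Cy5 orientation 1 of them was called, against 3.15% of all probes, and of the p53 targets 0 were called in either. Without arrays 35, 36 and 84 the list median was 0.106, with 14 of 21 genes positive, against 0.069 and 58.7% for all probes there.

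In the apoptosis list, 23 of 38 genes were tested and 13 were positive, with a median of 0.313. Casp6, an executioner caspase, had the smallest p. Its turned scores ran from -2.26 through a median of 0.04 to 0.99 in Balb/C and from -2.88 through -2.21 to 0.23 in B6.C (8 arrays each). All B6.C arrays but number 49 were below 0, and in Balb/C 4 of 8 were above it. The difference was 1.54 ± 0.53 (SE), with 2.02 in Cy5 and 1.07 in Cy3, and the adjusted p was 0.888. Birc2, an inhibitor of apoptosis, was at -0.71 ± 0.37 (SE).

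Across the 27 lists with at least 3 tested genes, 421 genes were tested and 17 had an unadjusted p under 0.05, all of them positive, of which 10 had the same sign in both orientations. Of all probes tested 3.67% had such a p, 434 of 484 of them positive and 327 with the same sign, a share close to that of these lists. In 18 of the 27 lists the median was of opposite sign in the Cy5 and the Cy3 orientation. Among interferon genes 7 of 10 were positive (median 0.378), with Tap1, a peptide transporter of antigen presentation, at 0.63 and Irf7 as given above. The immediate early genes had 9 of 10 positive (median 0.278), among them the transcription factors Srf at 1.04 and Fosl2 at 0.57. Cytokine and chemokine genes had 15 of 20 positive (median 0.327), with Cxcl10, an interferon-induced chemokine, at 0.84 and Ccl19, a chemokine of the T cell zone, at -0.35. Among chaperones, Tcp1, a subunit of the chaperonin TRiC, was at 1.81 ± 0.67 (SE) and Hsp90ab1 at -0.91 ± 0.47 (SE), and 12 of 17 were positive (median 0.067). Tcp1 passed with array weights, at 2.37 and an adjusted p of 0.0234, but not with gene-by-gene weights (adjusted p = 0.0811). Of the ribosomal protein genes 33 of 46 were positive (71.7%), with a median of 0.199, close to that of all probes, and Rpl15 at 0.57 and Rpl26 at -0.55. Among respiratory chain genes 19 of 24 were positive (79.2%, median 0.316), with the complex I subunit Ndufa9 at 0.39. In 3 of these 24 was the sign the same in both orientations, and without arrays 35, 36 and 84 the count was 11 of 24 and the median -0.009, against 58.7% positive and 0.069 for all probes there.

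Further lists covered stress and growth. Antioxidant genes had 9 of 16 positive (median 0.242), with Prdx2, a peroxiredoxin abundant in red cells, at 1.10 and the glutathione transferase Gstp1 at 0.74. Prdx2 stood at 4.57 and 2.92 on Balb/C arrays 35 and 36 and at 1.08 or lower on the other Balb/C arrays. Stress hormone genes had 4 of 6 positive (median 0.279), with Tsc22d3, a glucocorticoid-induced regulator, at -0.50 and Cebpd at 0.58. In the TGF-beta and matrix list 15 of 25 were positive (median 0.112), with Smad6, an inhibitor of the pathway, at 0.64 and Thbs1, which activates TGF-beta, at 0.45. Cell cycle genes had 18 of 30 positive (median 0.130), with E2f1 at 1.03 and Ccnd2 at 0.53. E2f1 stood at 4.88 on Balb/C array 36 and at -2.41 on B6.C array 52, and its difference was 1.81 in Cy5 and 0.24 in Cy3. The MHC list had 9 of 13 positive (median 0.127), with B2m, the light chain of class I molecules, at 0.66. Of the genes that the study singled out, 4 were tested. Smcp, a sperm mitochondrial protein, was at 0.53, the receptor Notch3 at 0.42, the matrix protein Tgfbi at 0.44 and the matrix protein Ltbp2 of the latent TGF-beta binding protein family at 0.31, and of these Smcp alone had the same sign in both orientations.

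**Figure D4:**
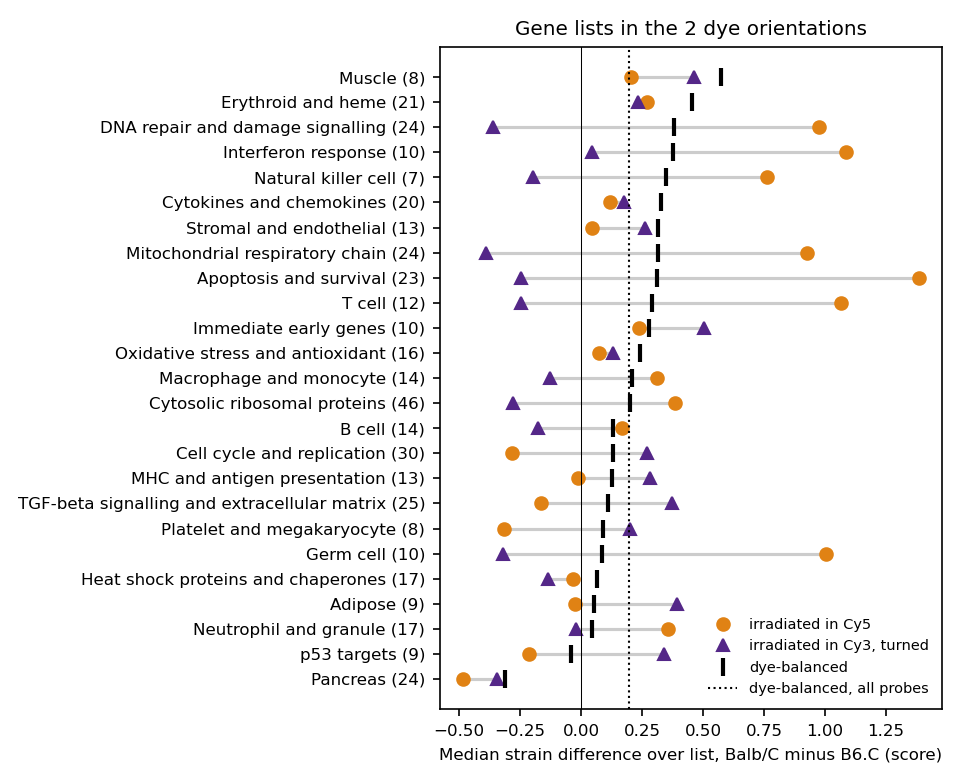
Median strain difference over the tested genes of each list with at least 7 of them (x axis, score, Balb/C minus B6.C; number of tested genes in brackets), with irradiated RNA in Cy5 (circles), in Cy3 after turning (triangles) and dye-balanced (black ticks). The dotted line is the dye-balanced median of all probes, 0.195. The pancreas list is at -0.313, and the repair, respiratory chain, apoptosis and T cell lists lie on opposite sides of 0 in the 2 orientations.

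Marker lists of cell types that follow, where at least 3 genes were tested, had medians of 0.045 to 0.350, against 0.195 for all probes. The T cell median was 1.06 in Cy5 and -0.246 in Cy3, and that of natural killer cells 0.761 and -0.199. B cell genes had 9 of 14 positive (median 0.130), with the surface protein Cd37 at 0.27 and the follicle-homing receptor Cxcr5 at -0.17. T cell genes had 7 of 12 positive (median 0.291), with Thy1 at 0.53 and the transcription factor Lef1 at -0.31. On single arrays the T cell median was 3.70 on Balb/C array 36 and 1.07 on array 35, between -0.799 and 0.214 on the other Balb/C arrays and between -0.188 and 0.482 in B6.C. Natural killer cell genes had 6 of 7 positive (median 0.350), with the activating receptor Ncr1 at 0.47 and the granule protein Nkg7 at -0.30. Macrophage genes had 8 of 14 positive (median 0.210), but their named members, the adhesion molecule Vcam1 at -0.67 and the mannose receptor Mrc1 at -0.53, were negative. Neutrophil genes had 10 of 17 positive (median 0.045), with Ncf4 as above and the peptide receptor Fpr1 at 0.85. Of the dendritic cell genes 2 were tested, Itgax at 0.81 and Flt3 at -0.42. Platelet genes had 5 of 8 positive (median 0.090), with Gp1bb at -0.31, and stromal and endothelial genes 11 of 13 (median 0.317), with Pdgfrb at 0.68 and Nos3, the endothelial nitric oxide synthase, at 0.32. As with all probes tested, no gene of these lists was called in the dye-balanced fit. The signs of Cd37, Cxcr5, Thy1, Nkg7, Gp1bb and Nos3 changed when arrays 50 or 53 were turned.

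Genes of tissues that can adhere to a dissected spleen were measured too. The pancreas list was the one furthest to the negative side, with 7 of 24 tested genes positive (29.2% against 67.5%) and a median of -0.313. Without arrays 35, 36 and 84 it was at -0.980, with 3 of 18 genes positive, and after scaling at -0.807. Its median turned score in Balb/C was -1.83 on array 3, -1.44 on array 5, -0.741 on array 35, -0.070 on array 36, -0.591 on array 2, -1.25 on array 4, -1.40 on array 6 and 0.252 on array 84. In B6.C it was 0.398 on array 47, -1.50 on array 49, -1.52 on array 51, 0.102 on array 53, 0.852 on array 48, -0.776 on array 50, -1.67 on array 52 and 0.086 on array 54. Balb/C was thus below 0 on 7 of 8 arrays, in both orientations, and B6.C on 4 of 8, with wide overlap. Before turning, the list median was below 0 on all 4 Balb/C arrays with irradiated RNA in Cy5 and above 0 on 3 of the 4 with it in Cy3.

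Single pancreas genes followed. Reg1, a secreted lectin of acinar cells, was at -0.99 ± 0.79 (SE), Prss1, a trypsinogen, at -0.76 ± 0.81 (SE) and Reg3b at -0.90 ± 0.55 (SE), while the trypsin gene Try4 was at 0.88 ± 0.52 (SE). Trypsin genes are close copies, and their probes may share RNA. Pnlip, pancreatic lipase, was at -0.77 but with 1.77 in Cy5 and -3.32 in Cy3. In the weighted fits Try4 was at -0.07 and -0.01. Muscle genes were positive for 8 of 8 tested (median 0.574), among them Tnnc1, troponin C, at 0.60 and Myl2, a myosin light chain, at 0.62, but for 4 of 8 when arrays 50 and 53 were turned. Adipose genes had 5 of 9 positive (median 0.052), with Ucp1 and Cidea of brown fat at 0.43 and 0.36, and germ cell genes 7 of 10 (median 0.084). The part of these tissues in the values of other genes was not tested.

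The strain difference that did not turn with the dyes was wider than the one that did. This component is the strain difference in the Cy5 orientation minus the turned difference in the Cy3 orientation, divided by 2, so that a probe whose Balb/C scores were raised in both orientations before turning has a high value in it. Its SD over probes was 0.942, 2.23 times that of the dye-balanced difference (0.423). In limma 987 of 13180 probes passed (7.49%), 984 of them positive and 301 with a symbol, and all 987 had opposite signs in the turned orientations. If the deposited scores had already been put in the direction of irradiated over control, this component would be the strain contrast of the response. Which of the readings holds cannot be told apart from the sources used here.

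The genes of this component with the smallest p were chosen after their values were seen, and their values are a description. H2ax encodes the histone variant that is phosphorylated around DNA breaks. Its centred scores before turning were at lowest 1.05, in the median 3.31 and at highest 7.37 on the 8 Balb/C arrays and -1.36, -0.09 and 0.72 on the 8 B6.C arrays. The strains did not overlap, and without arrays 35, 36 and 84 the Balb/C scores still ran from 1.05 to 4.48. Pecam1, an adhesion molecule of endothelium and platelets, ran from 0.97 through a median of 3.27 to 5.86 in Balb/C (7 arrays) and from -1.25 through -0.32 to 0.30 in B6.C (8 arrays). M6pr, the cation-dependent mannose 6-phosphate receptor, ran from 1.41 through 3.09 to 6.71 in Balb/C and from -1.59 through -0.21 to 0.39 in B6.C (8 arrays each). Adcy7, an adenylyl cyclase of blood cells, ran from 1.14 through 3.32 to 6.16 in Balb/C (7 arrays) and from -1.53 through -0.69 to 0.80 in B6.C (8 arrays).

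The other members were the clathrin adaptor Ap1m1, the receptor Gpr3, the stem cell zinc finger gene Zfp42, the growth regulator Pa2g4, the transcriptional repressor Spen, the LIM protein Fhl1, the keratin Krt16 and the heterochromatin protein Cbx1. The 12 genes were selected on the strain difference of these same scores, so that separation before turning follows from the selection. In all 12 genes each measured Balb/C array was above 0 before turning, and in 11 of 12 the strains did not overlap. Over all 13180 probes this was the case for 408 (3.1%). Ap1m1 was the exception, with a lowest Balb/C score of 1.18 against a highest B6.C score of 1.19. By contrast, dye-balanced values of these genes were between -0.26 for M6pr and 1.17 for Spen. Of the 987 probes, 92.7% of those measured on array 36 scored above 2 there, against 33.1% of all tested probes, and 92.9% did so on array 35, against 16.8%. The scores of both arrays entered the test that selected these probes, so that high shares there follow in part from the selection. Without arrays 35, 36 and 84, 633 probes passed, without arrays 50 and 53 480 did, with the signs of arrays 2 and 49 turned 7 did, and 0 did when arrays were not centred.

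**Figure D5:**
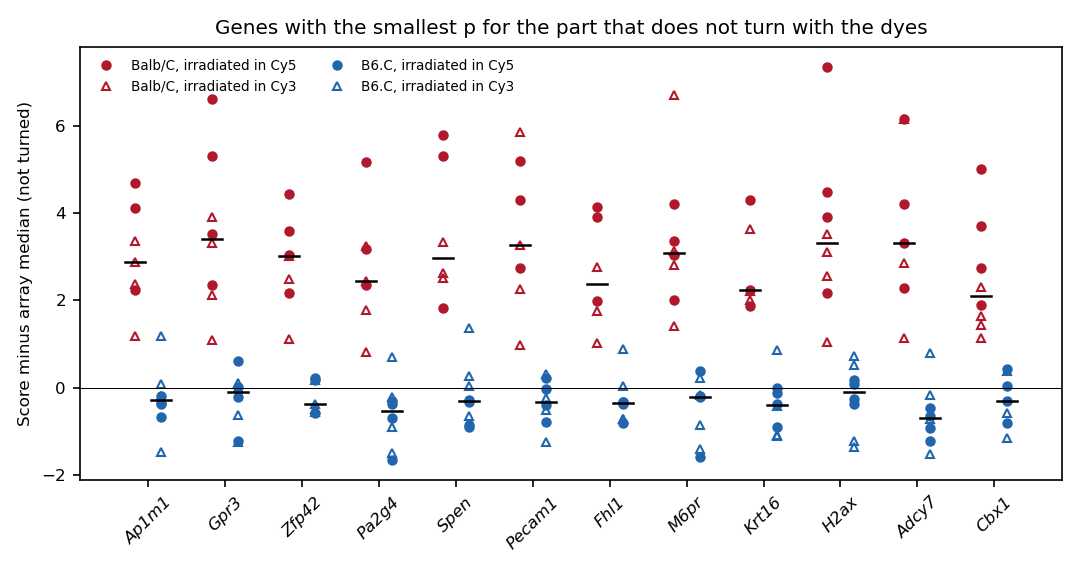
Centred scores before turning (y axis) on each array for the 12 named genes with the smallest p for the component that does not turn with the dyes. Filled circles are arrays with irradiated RNA in Cy5, open triangles those with it in Cy3, and black bars the median of each strain. Every Balb/C array lies above 0 in both orientations, and B6.C arrays scatter around or below 0, up to 1.37. The genes were selected on these scores.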

How the data were processed

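Spleen RNA of irradiated and sham-exposed mice was hybridised to two-colour arrays of long oligonucleotides. Per the methods, poor and dim spots were removed, local background was subtracted and Lowess was applied within arrays. The authors deposited a signed score per spot and array. The sources used here do not give its scale, its log base, whether it was centred or which dye is on top. The methods state a median centring between slides for the correlation analysis, whereas the array medians of these scores ran from -2.91 to 3.95. Log2 ratios had been assumed when the tests were designed, and the deposited scores took their place without conversion. Of 23232 spots, 1235 control spots (blank, buffer or Alien) were omitted, spots of the same accession were averaged, and 6518 of 21618 probes were named through RefSeq accessions (GRCm38.p6, for names only). Dye, strain and dose came from the labels.

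Strain differences were fitted as 4 means, 1 per strain and orientation, by lmFit and eBayes of limma 3.58.1 (R 4.3.3), with Benjamini-Hochberg adjustment over all probes tested and calls at an adjusted p under 0.05. The labels do not tie arrays to mice. P-values therefore measure the spread between arrays, which may be technical, and the number of arrays limits the precision. Genes named have the same sign in both orientations: 12 per side with the smallest p, up to 2 per gene list, and those singled out by the study whatever their sign. Others named were list members or were chosen after their values were seen. The comparison, lists and rule were chosen with earlier results of these data known. Scripts were tested on simulated data. Other centring, filters, weights, spread estimates and signs were tried and each array was left out in turn, and fits without wide or unsettled arrays in some comparisons, other sign changes and gene-by-gene weights were added after seeing the data. Results of some genes are not reported here.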

Additional observations from a re-analysis of the deposited data

Results flagged for a closer look

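Of 156 sets of arrays examined (each named gene and 3 array measures, per strain), 13 held 1 array far from the others of its strain, where chance flags about 1 in 20 sets. B6.C array 52 had a deposited median of -2.91, against 1.26 to 3.95 on the other B6.C arrays. Among turned scores, Balb/C array 36 stood at 4.88 for E2f1 (others -0.97 to 1.80) and at 4.22 for Fpr1 (others -0.39 to 0.72), and Balb/C array 35 at 2.19 for Myl2 (others -1.21 to -0.07). B6.C array 53 stood above the rest for Atg3 at 1.26, Znrd1 at 1.48, Hsd11b2 at 1.28, Kif21a at 1.23 and Mrc1 at 1.72, where the other arrays reached at most 0.58. B6.C array 49 stood apart for Nid2 at -0.56 (others 0.47 to 0.73) and Ncr1 at 1.58 (others up to 0.14). B6.C array 52 was at -2.41 for E2f1 (others -0.33 to 0.38), and B6.C array 54 at -0.75 for Notch3 (others -0.10 to 0.36).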

How the results depend on the processing

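The dye-balanced strain difference had 0 calls under every alternative except array weights (60 and, by the gene-by-gene estimate, 16), and with each array left out in turn. With irradiated RNA in Cy5 the 415 calls became 8769 as deposited without centring (all negative), 886 after scaling, 236 with values on all 16 arrays, 0 with spread not shared between probes, 168 with array 53 turned, 257 with array 49 turned, 0 with it left out and 174 without arrays 35 and 36; leaving out 1 array gave 0 (B6.C arrays 47, 49 or 53) to 1072. With irradiated RNA in Cy3 there were 260 calls after scaling, and 0 to 200 with 1 array left out, 200 without array 52. The component that does not turn had 0 calls as deposited, 7 with arrays 2 and 49 turned, 480 without arrays 50 and 53, 633 without arrays 35, 36 and 84, 474 with all 16 arrays and 706 to 1894 with 1 array left out. The Balb/C response had 6 calls without arrays 35, 36 and 84, and the B6.C response 0 with arrays 50 and 53 turned, 5 without them and 4 with array 49 turned. The causes were not tested. As deposited, the median of all probes moved by -1.68, and gene values are given relative to it. No paired analysis was possible because the labels do not pair the arrays.

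Of 75 named genes, 23 changed sign somewhere. With arrays 50 and 53 turned, Tnnc1 was at -0.0073, Myl2 at -0.025, B2m at -0.040, Tap1 at -0.078, Thy1 at -0.09, Try4 at -0.12, Ndufa9 at -0.13, Cebpd at -0.13, Ucp1 at -0.18, Gstp1 at -0.21, Cd37 at -0.24, Rpl15 at -0.25, Cidea at -0.29, Fosl2 at -0.36, Nos3 at -0.67, Rpl26 at 0.020, Reg3b at 0.060, Nkg7 at 0.10 and Cxcr5 at 0.24. With array 53 alone turned, Rpl15 was at -0.029, Cd37 at -0.084, Thy1 at -0.091, Ucp1 at -0.12, Nos3 at -0.12 and Gp1bb at 0.047. With array 50 alone turned, Cidea was at -0.0018, Nos3 at -0.24 and Cxcr5 at 0.24, and without both arrays Nos3 was at -0.21 and Cxcr5 at 0.10. With array weights, Nos3 was at -0.00050, Try4 at -0.074, Tgfbi at -0.45, Ltbp2 at -0.48, Pmaip1 at 0.11 and Gp1bb at 0.40, and by the gene-by-gene estimate at -0.043, -0.013, -0.41, -0.43, 0.12 and 0.29. Without arrays 35, 36 and 84, Ltbp2 was at -0.46 and Pmaip1 at 0.10. Pmaip1 was at 0.022 as deposited and at 0.44 with arrays 2 and 49 turned, and after scaling Tgfbi was at -0.12. With 1 array left out, Cxcr5 ran from -0.43 to 0.098, Pmaip1 from -0.27 to 0.21, Gp1bb from -0.61 to 0.065 and Ltbp2 from -0.17 to 0.63.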
